A study of Glycine max with 30 samples.

Results

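The lists of H3K27me3 islands of soybean embryos at the cotyledon stage (COT) and at early maturation (EM) were compared. H3K27me3 is histone H3 trimethylated at lysine 27, and an island is a stretch of the genome called as enriched in H3K27me3 ChIP-seq reads over its control. The deposited fold is the ratio of the counts times a constant of each list, so an island can hold fewer ChIP than control reads. All 21435 COT islands and all 14155 EM islands entered, 35590 of the 319439 regions in the 10 lists of the series, and they rest on 8 of its 30 libraries. A COT island was called kept if at least 1 bp of it lay in an EM island and lost if none did. An EM island with no COT island over it was called gained. Lost and gained therefore describe membership of a list, and a lost island can still hold reads of the mark.

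The series follows H3K4me3 and H3K27me3 by ChIP-seq at 5 stages, from the soybean embryo to the seedling. Plants were Glycine max cultivar Williams 82, grown in a greenhouse. COT embryos were dissected from seeds 2.5 to 3.5 mm long and EM embryos from seeds 6 to 7 mm long. Per the labels, tissue of both stages was crosslinked for 10 minutes in 1% formaldehyde, and chromatin fragments of 100 to 500 bp were precipitated with 10 µg of the H3K27me3 antibody or with 3 µg of an antibody to total H3, the control. Each stage had 2 biological replicates per antibody, with 15 cycles of PCR in library preparation. Each island list pools both replicates, so that no value here has an error between replicates and no difference was tested. The 95% Wilson intervals given with shares cover counting error only, and neighbouring islands are not independent.

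H3K27me3 is deposited by Polycomb repressive complex 2 and lies over the bodies and flanks of genes that are kept silent, often in broad domains. In plant embryos and seedlings, the mark is known for holding genes of other developmental phases off, and its removal goes with their activation. H3K4me3 lies at the starts of expressed genes, and both marks can be mapped to the same place where cells differ or where alleles or nucleosomes carry both. In embryos made of many cell types, fewer cells carrying the mark and less mark per cell cannot be told apart.

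The lists were not equally deep. COT islands held 23990523 ChIP reads and 8617809 control reads over 115 Mb, and EM islands held 6837194 and 5613508 over 89.9 Mb. This is 208 ChIP reads per kb at COT and 76.0 at EM, against 74.8 and 62.4 control reads per kb. In the 11715 islands that were kept 1 to 1, the ChIP density at COT was 3.11 times that at EM (median), while the control density was 1.21 times that at EM. The lower read density at EM thus lay mainly in the ChIP. Density within islands takes in both depth and enrichment, and the fold in these islands at EM was 0.898 times that at COT (median). Losses are given below as listed and again with COT counts scaled by this density, called scaling to the EM depth.

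Most of the EM pattern was already present at COT, and the COT list held many more islands. Of the COT islands, 13802 were kept (64.4%, 95% Wilson interval 63.7 to 65.0) and 7633 were lost, which is 35.6% (35.0 to 36.3). Of the EM islands, 13978 were kept (98.7%) and 177 were gained, which is 1.25% (1.08 to 1.45). As listed, lost islands outnumbered gained ones in every width class, and the gap was much smaller with lists of like length: 2193 lost and 1755 gained (12.4%) with equal numbers by ratio.

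By bases the COT list differed less from EM than by islands, and the EM list differed more from COT. The islands of both lists shared 83.1 Mb, which is 72.2% of the COT bases and 92.4% of the EM bases. Of the 32.0 Mb listed at COT alone, 18.9 Mb lay in lost islands and 13.1 Mb in parts of kept islands. Of the 6.81 Mb listed at EM alone, 0.33 Mb lay in gained islands and 6.48 Mb in kept ones. Lost islands held 16.5% of the COT island bases and 8.70% of the COT ChIP reads, and gained islands held 0.255% of the EM ChIP reads. EM-only sequence thus lay almost entirely at the edges or in the gaps of islands already listed at COT.

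Lost islands were narrow and weakly enriched. Their median width was 2200 bp (quartiles 1600 and 3000) against 5400 bp (3400 and 8800) in kept islands. They held a median of 229 ChIP reads against 1005. ChIP density was 108 reads per kb in lost and 194 in kept islands, while control density was 75.8 and 75 reads per kb. Over all widths, lost and kept islands therefore differed in ChIP density, while their median control density was nearly equal. Within each width class the control was less dense in lost islands, most of all up to 1000 bp, with 86 against 105 reads per kb.

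The ratio of ChIP to control reads, divided by the median ratio of the own list, was used as relative ratio. It removes the difference in depth between lists but carries their make-up, since the median depends on how many weak islands a list holds. Its median was 0.692 in lost islands (quartiles 0.581 and 0.840) and 1.26 in kept islands (0.956 and 1.65). The authors' deposited fold over control was 1.90 and 3.46. A relative ratio of at least 1 was found in 878 lost islands (11.5%) and in 9840 kept islands (71.3%). Above the median of the kept islands lay 274 lost islands (3.59%). The 2 groups overlapped in relative ratio, and the upper quartile of the lost islands lay under the lower quartile of the kept ones.

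**Figure D1:**
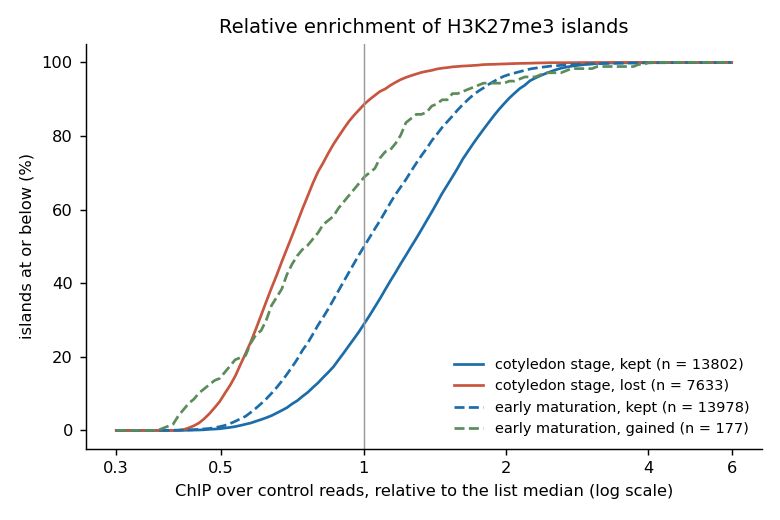
Cumulative share of islands (%) by relative ratio (ChIP over control reads divided by the list median, log scale) for COT islands kept and lost (solid) and EM islands kept and gained (dashed). The curve of lost islands lies left of that of kept islands, with medians of 0.692 and 1.26.

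The share lost followed the relative ratio from the weakest to the strongest islands. In the weakest 10% of COT islands 86.8% were lost (85.3 to 88.2), and in the strongest 10% 1.87% were lost (1.37 to 2.53). The share lost was lower in each step of 10% between them, with 33.5% just under the list median and 19.7% just above it. Median width went the same way, from 2400 bp in the weakest to 8400 bp in the strongest 10%, so width and ratio were also used jointly.

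By width alone, 60.3% of islands up to 1000 bp were lost, 76.8% of those over 1000 to 2000 bp, 49.2% of those over 2000 to 4000 bp, 13.3% of those over 4000 to 8000 bp and 1.03% of those over 8000 bp. The highest share was in the class over 1000 to 2000 bp and not in the narrowest. Within each width class, the share lost was highest among the weakest 25% of COT islands and lowest among the strongest 25%. In islands over 2000 to 4000 bp it went from 81.1% to 5.44%. In islands over 8000 bp it went from 17.7% (11 of 62) to 0 of 2498, for which the Wilson interval reaches 0.154%. All COT islands that were both over 8000 bp wide and among the strongest 25% were thus listed at both stages.

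**Figure D2:**
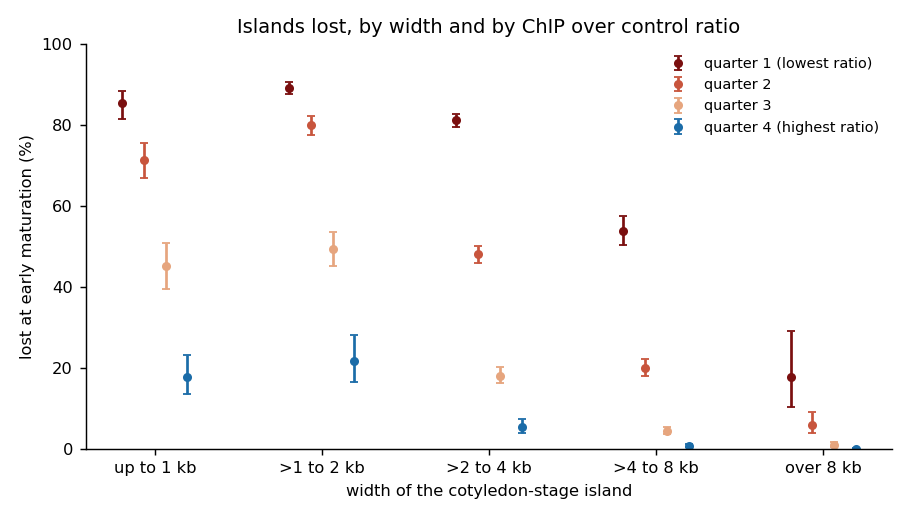
Share of COT islands lost at EM (%) by width class, split into 4 equal parts of the whole COT list by ChIP over control ratio; bars are 95% Wilson intervals. In all 5 width classes the share lost is highest in the lowest part of the ratio and lowest in the highest part.

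The deeper COT ChIP was scaled to EM in 2 ways. In the first, COT ChIP counts were multiplied by 0.321, the median EM over COT density of islands kept 1 to 1, and a COT island passed if its scaled density reached the lowest 5% of EM islands of its width class. For islands over 2000 to 4000 bp this asks for 35.6 reads per kb, or 111 at COT depth. The rule uses ChIP density alone, so islands on dense control can pass with a low fold. Kept islands passed in 12225 of 13802 cases (88.6%) and lost islands in 1921 of 7633 (25.2%). Most lost islands were therefore less dense, at EM depth, than nearly all EM islands of like width.

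Among the 14146 COT islands that passed, 13.6% were lost (13.0 to 14.2), and among the 7289 that did not, 78.4% (77.4 to 79.3). In the second way, a Poisson p-value was computed from scaled ChIP and control counts and had to reach the highest p-value in the EM list. This asked for less: 6810 lost islands (89.2%) and 99.4% of kept islands passed, and 33.2% of those that passed were lost. The share lost thus lay between 13.6% and 33.2% after scaling, depending on what an EM island was taken to need. With the lists cut to equal numbers, 15.5% (by ratio) or 12.5% (by p-value) of COT islands were lost. The share gained was larger under these settings: 1586 EM islands (11.2%) against the COT islands that passed the scaled density, 12.4% with equal numbers by ratio and 9.06% by p-value. A shorter COT list leaves more EM islands without a partner by construction. How much of the loss is depth and how much is less mark was not tested.

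Some islands were lost despite a fold above the COT list median of 2.74. Of the 9301 COT islands with a deposited fold of at least 3, 579 had no EM island of any fold over them (6.23%). Their median fold was 3.43, near the 3.46 of all kept COT islands. Their width was 1800 bp and their ChIP density 153 reads per kb. The 8722 kept islands of that fold had a median fold of 4.20, a width of 6600 bp and 234 reads per kb. Control density in the 579 was 57.1 reads per kb against 73.6 in the kept ones. These lost islands thus reached their fold with fewer control reads as well as fewer ChIP reads, and the part of the low control in the fold was not tested.

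At the limit of the 1 bp rule, 22 COT islands were kept by a single window of 200 bp, and their median relative ratio was 0.882. Another 362 lost islands ended within 1000 bp of an EM island, with a median relative ratio of 0.676. The median lost island lay 13600 bp from the nearest EM island, so most losses were not near misses of position.

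The 6 lost islands with the most ChIP reads show that lost islands were of different kinds. The first, 18800 bp on chromosome 18 from 42707001 to 42725800, held 4844 ChIP and 4347 control reads, a fold of 1.47. The second, 6800 bp on chromosome 15 from 44584401 to 44591200, held 2563 and 2094 reads, a fold of 1.61. Both lay where the control was dense, with 231 and 308 control reads per kb, 3.08 and 4.10 times the list median. Both passed the scaled density, with 82.8 and 121 ChIP reads per kb at EM depth against the 49.8 and 35.9 asked.

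The other 4 had control densities between 0.859 and 1.00 times the list median. On chromosome 6 from 44315601 to 44327800, an island of 12200 bp held 2089 ChIP reads and 911 control reads, a fold of 3.02. On chromosome 20 from 2118801 to 2132600, 13800 bp held 1949 and 891 reads, a fold of 2.88. On chromosome 19 from 38836201 to 38849600, 13400 bp held 1636 and 1007 reads, a fold of 2.14. These 3 were broad, with relative ratios from 0.781 to 1.102, and all were listed again at mid- and late maturation.

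The most enriched of the 6 lay on chromosome 5 from 38494801 to 38501400. It held 1767 ChIP reads and 497 control reads over 6600 bp, a fold of 4.68 and a relative ratio of 1.71. At EM depth this would be 568 ChIP reads, or 86.0 per kb, where the lowest 5% of EM islands of its width class begin at 35.9. It overlapped an H3K4me3 peak at both stages. It was not listed at mid-maturation and was listed again at late maturation and in seedlings.

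Gained islands were few, and most were short or weak. Their median width was 1600 bp (quartiles 400 and 2800), with 77 ChIP reads and a relative ratio of 0.751 (0.585 and 1.104), against 4800 bp, 271 reads and 1.00 in kept EM islands. Of the 177, 49 (27.7%) were at most 400 bp wide, against 0.901% of kept EM islands. Only 1 was over 8000 bp wide, with 442 ChIP and 486 control reads. By width, 12.5% of EM islands up to 1000 bp were gained and 0.0295% of those over 8000 bp. The median gained island lay 10800 bp from the nearest COT island, and 16 lay within 1000 bp of one.

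Among gained islands of at least 1000 bp, the highest fold was at chromosome 1 from 9721401 to 9722800, with 110 ChIP and 65 control reads and a fold of 5.16. This island was listed at all 3 later stages and had no H3K4me3 peak at COT or EM. Second came chromosome 7, from 42779601 to 42780800, with 69 and 56 reads and a fold of 3.76. An island of 2600 bp on chromosome 8 from 2227401 to 2230000 had 115 and 98 reads, a fold of 3.58. The other 3 named by the same rule spanned 716601 to 718400 of chromosome 14 (fold 3.57), 15927401 to 15929200 of chromosome 12 (fold 3.51) and 33958601 to 33960200 of chromosome 5 (fold 3.42). All 6 had fewer control reads per kb than the list median, by factors of 0.609 to 0.772, and the last was the only one listed at none of the later stages.

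Gained islands under 1000 bp formed a group of their own, separated after their values had been seen. There were 65 of them, with a median of 400 bp, 48 ChIP reads, 92.5 control reads per kb and a relative ratio of 1.21. The 360 kept EM islands under 1000 bp had 112 control reads per kb and a relative ratio of 1.70, so both kinds of short island lay on dense control. The 112 gained islands of at least 1000 bp had a relative ratio of 0.656 and 65.4 control reads per kb.

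Most kept islands met exactly 1 partner. Overlaps formed 13082 groups, of which 11715 (89.6%) paired 1 COT with 1 EM island. In 707 groups (5.40%) 1 COT island was split over several EM islands, in 547 (4.18%) several COT islands were joined under 1 EM island, and 113 groups were mixed. Counted by island, 824 COT islands (5.97% of the kept) lay over 2 or more EM islands, and 667 EM islands (4.77% of the kept) over 2 or more COT islands. Neither count reached more than 4 partners.

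Splitting and joining were found in broad domains. Split COT islands had a median width of 12000 bp and a relative ratio of 1.31, and joining EM islands 11400 bp and 1.11. Of the kept COT islands over 8000 bp, 16.1% were split, against 3.23% of those over 4000 to 8000 bp. Of the kept EM islands over 8000 bp, 13.0% joined COT islands, against 3.92%. The gaps were short: the median was 1000 bp on both sides, and 64.7% of the 896 gaps in split and 67.2% of the 720 gaps in joined islands were at most 1000 bp, where the caller bridges gaps up to 600 bp. When islands at most 1000 bp apart were joined first, 582 splits and 423 joins were counted.

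The split islands with the most pieces had 4 each. On chromosome 7 from 39081401 to 39113000, 31600 bp with a fold of 4.10 at COT became EM islands of 9400, 5800, 8000 and 4800 bp, with folds of 2.65, 2.25, 2.23 and 3.98. On chromosome 9 from 45247601 to 45265000, 17400 bp with a fold of 2.55 became islands of 2200, 3000, 2000 and 5200 bp, with folds of 1.60 to 2.27. On chromosome 12 from 39232801 to 39276600, 43800 bp with a fold of 4.47 became islands of 3400, 14400, 7200 and 14000 bp, with folds of 2.41 to 5.30. The pieces still covered most of each domain, and in the last the wider ones had folds near that at COT.

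Joining ran the other way at similar places. On chromosome 5 from 39461601 to 39490000, 1 EM island of 28400 bp (fold 3.77) lay over COT islands of 11200, 1400, 5400 and 5400 bp. On chromosome 12 from 38079001 to 38102400, 23400 bp (fold 2.91) lay over 4 COT islands, the last of which ran on to 38128000. On chromosome 16 from 35759401 to 35806400, 47000 bp (fold 4.11) lay over COT islands of 28200, 27800, 1800 and 10000 bp. In each of these, the COT pieces included weak ones, the weakest with folds of 1.93, 1.73 and 1.51.

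The 3 widest COT islands stayed. The widest ran over 99200 bp on chromosome 18 from 58510001 to 58609200, with 29009 ChIP and 7343 control reads and a fold of 5.20. At EM it ran from 58514801 to 58609000, 94200 bp, with 8802 and 6421 reads and a fold of 4.18. It was listed at all 3 later stages.

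The second, 64000 bp on chromosome 12 from 37313601 to 37377600 (fold 4.92), lay over EM islands of 23600, 33000 and 5200 bp with folds of 4.27, 4.77 and 3.98. The third, 63000 bp on chromosome 13 from 37618601 to 37681600, was 62800 bp wide at EM, with folds of 2.92 and 3.89. It held 38184 ChIP reads but also 17225 control reads, 273 per kb or 3.64 times the list median. It therefore differed from the other 2 in control density.

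Islands kept 1 to 1 were on the whole slightly narrower at EM. The median width was 5200 bp at COT and 4600 bp at EM, with a median change of -200 bp (quartiles -1000 and 400), which is 1 window of the caller, and a median ratio of 0.958. EM was narrower in 6480 (55.3%), equal in 1265 (10.8%) and wider in 3970 (33.9%). In bases, 76.6 Mb at COT became 71.0 Mb at EM, or 92.7%. Both edges lay within 1 window of 200 bp of their COT place in 22.6%, and 796 islands (6.79%) had exactly the same edges. In 733 the EM width was at most 50% of the COT width, and in 237 it was at least 2 times as large.

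Narrowing went with weak enrichment at COT. Among the weakest 25% of islands kept 1 to 1 the median width ratio was 0.882 and 62.2% were narrower. In the next 2 groups of 25% the ratio was 0.912 and 0.962. Among the strongest 25% it was 1.00, with 40.8% narrower and 45.2% wider, and the bases at EM were 101% of those at COT against 82.1% in the weakest. Strong islands thus went both ways, with 14.0% of equal width, and their summed extent was close to that at COT.

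**Figure D3:**
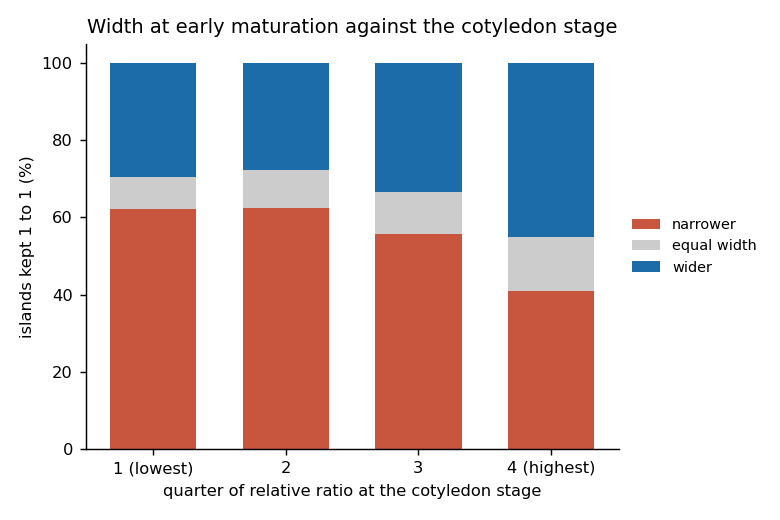
Islands kept 1 to 1 that were narrower, equal or wider at EM than at COT (% of each group), by 4 equal groups of COT relative ratio. The narrower share is 62.2% in the lowest and 40.8% in the highest group.

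By width, the islands of 4000 to 8000 bp narrowed most often, 64.2% of 4572, with a median ratio of 0.914. The 471 kept 1 to 1 that were at most 1000 bp wide at COT went the other way: 51.0% had equal width, 44.6% were wider and 4.46% narrower, and 27.8% were at least 2 times as wide. No island can be narrower than 1 window of 200 bp, which limits how far these could narrow.

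The order of islands by relative enrichment was largely kept. Across the 11715 islands, log2 relative ratio at COT and EM had a Pearson r of 0.744, and Spearman's rho was 0.756. This is a description across islands, which share their libraries and are not independent. Of the 1171 strongest islands at each stage (10%), 676 (57.7%) were the same.

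The median relative ratio of kept islands was lower at EM, by -0.31 on the log2 scale (quartiles -0.53 and -0.08), and it was higher in 2137 of them (18.2%). The COT list median includes the weak lost islands, so kept islands have a higher relative ratio at COT by construction. The authors' fold, which does not use the list median, had a median change of -0.15 (log2), with 3773 islands (32.2%) higher at EM. Fold and relative ratio differ only by a constant in each list. The -0.31 and the -0.15 thus differ only through the list medians of fold, 2.74 at COT and 3.06 at EM. How much of that difference the lost islands make up was not tested. Relative to the median change of all kept islands, few stood apart: 169 (1.44%) were more than 1 (log2) higher at EM and 66 (0.563%) more than 1 lower.

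**Figure D4:**
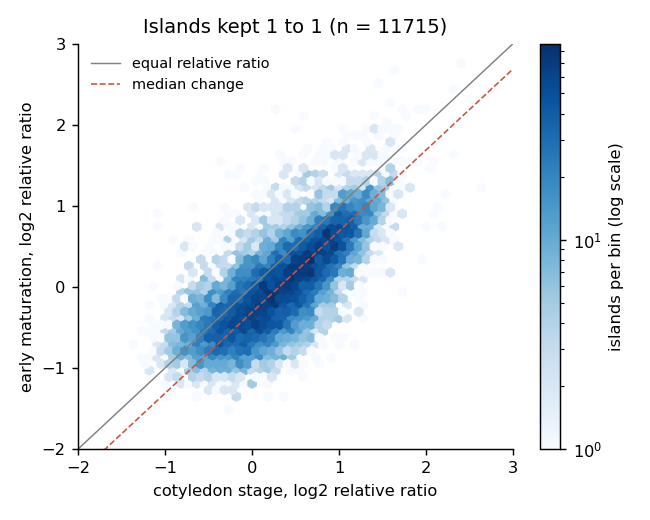
Log2 relative ratio at COT (x) and EM (y) of the 11715 islands kept 1 to 1, as the number of islands per hexagonal bin (log colour scale), with the line of equal ratio and the median change of -0.31. Most bins lie under the line of equal ratio and along the line of the median change. The list median at COT includes the lost islands, which raises the COT ratios of kept ones.

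The direction of the difference in ratio was not the same at all widths. In islands of at most 1000 bp the median log2 change was 0.29 (COT relative ratio 1.25, EM 1.49), and in the 4 wider classes it lay between -0.26 and -0.37. Control density at EM was 0.954 times that at COT in the short islands and 0.805 to 0.832 times in the others. Short kept islands therefore stood apart from the rest in width, ratio and control alike.

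Among kept islands of at least 2000 bp at both stages, the largest difference upward was on chromosome 3 from 36012001 to 36015800. It had 485 ChIP and 378 control reads at COT (fold 1.69) and 616 and 421 at EM (fold 4.46), a log2 change in relative ratio of 1.24. Here EM held more ChIP reads than COT although the EM list was shallower. The island also widened from 3800 to 5800 bp.

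The next 3 upward spanned 1154801 to 1159800 of chromosome 17 (fold 2.34 and 5.67), 5297401 to 5300200 of chromosome 16 (1.69 and 3.74) and 37939001 to 37947400 of chromosome 8 (3.32 and 7.30). The last was 8400 bp wide at COT and 2000 bp at EM, so the EM fold stands for the inner part of the COT island. All 4 were listed at the 3 later stages. The first and the second overlapped H3K4me3 peaks at COT and EM.

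The largest differences downward are given, like those upward, without centring on the median change of -0.31. On chromosome 9 from 36215601 to 36219400, 885 ChIP and 284 control reads at COT (fold 4.11) stood against 180 and 376 at EM (fold 1.46), a log2 change of -1.65. On chromosome 19 from 45539201 to 45542000, 854 and 201 reads (fold 5.60) stood against 127 and 194 (fold 2.00). Scaled to EM depth, these COT counts would be 284 and 274 ChIP reads. At EM both islands were thus still listed but held fewer ChIP reads than the scaled COT count.

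On chromosome 12 from 4916801 to 4921200 the fold was 6.51 at COT and 2.37 at EM, while the island widened from 4400 to 8800 bp. On chromosome 20 from 1085201 to 1089000 it was 4.07 and 1.51. The last 3 of these 4 overlapped H3K4me3 peaks at both stages. The island on chromosome 20 was listed at mid-maturation and then at neither late maturation nor in seedlings.

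The later lists were not used to choose kept and lost islands. Kept islands had passed the same caller at another stage and were wider and more enriched, so kept and lost islands are not matched here. Of all COT islands, 66.3% overlapped an island at mid-maturation (MM), 70.6% at late maturation (LM) and 70.1% in seedlings (SDLG), whose lists held 15672, 16871 and 19398 islands. Kept islands were listed again in 91.6% at MM, 91.5% at LM and 88.6% in seedlings. Lost islands were listed in 20.4% (19.5 to 21.3) at MM, 32.8% (31.8 to 33.9) at LM and 36.7% (35.7 to 37.8) in seedlings. Per the labels, LM embryos were ground frozen and crosslinked by another protocol, which cannot be told apart from their stage.

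Lost islands were thus mostly not listed at the next stage either, and were listed more often at the 2 stages after it. With a fold of at least 3 in the later list this order was gone, with 2.32% at MM, 2.24% at LM and 2.28% in seedlings. In none of the 3 later lists were 3524 lost islands (46.2%), against 2.35% of kept ones. In all 3 were 761 (9.97%), against 81.1% of kept ones. The most frequent pattern among lost islands listed again was seedlings alone, with 1193 islands. The later islands at lost places were weak as well, with relative ratios of 0.651 at MM, 0.790 at LM and 0.802 in seedlings, where the later islands at kept places had 1.06, 1.08 and 1.08.

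**Figure D5:**
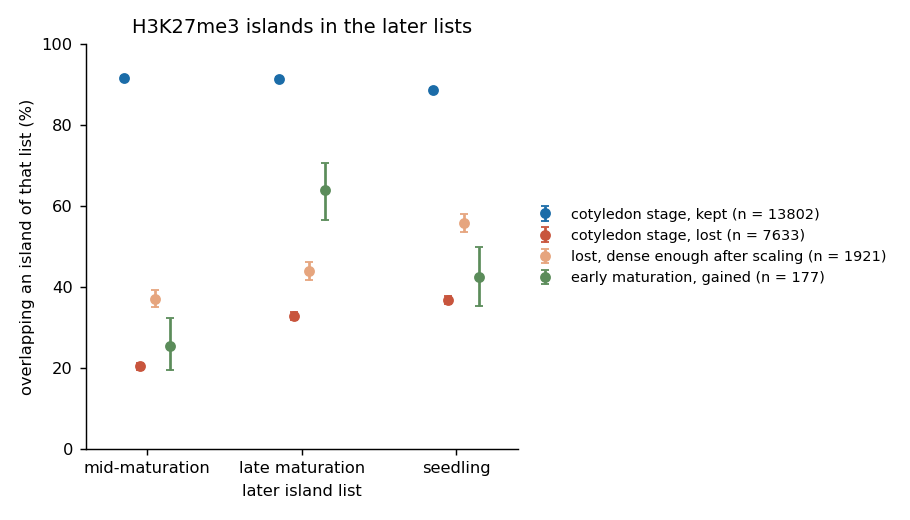
Share of COT islands kept, lost, and lost but dense enough after scaling, and of EM islands gained (%), that overlap an island of each later list; bars are 95% Wilson intervals. Kept islands lie between 88.6% and 91.6%, lost islands between 20.4% and 36.7%.

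The 1921 lost islands that passed the scaled density were listed later more often, 37.1% at MM, 43.9% at LM and 55.8% in seedlings, and 27.2% of them in no later list. In each of the 5 width classes and at each later stage, lost islands were listed less often than kept ones. For islands over 2000 to 4000 bp, lost ones were listed in 23.6%, 35.6% and 40.04%, and kept ones in 86.7%, 83.7% and 79.1%. At that width the COT relative ratio was 0.665 in lost and 1.05 in kept islands, so a width class does not match them in enrichment. Over 8000 bp, 18, 20 and 20 of the 42 lost islands were listed, against 98.8% to 99.2% of the kept ones. Of the 579 lost islands with a fold of at least 3, 35.6% were listed at MM, 38.5% at LM and 45.4% in seedlings, and 201 (34.7%) in none, where kept islands of that fold were listed in 97.1%, 95.9% and 95.8%. The kept islands of that fold were wider and had a higher median fold, so these 2 groups are not matched.

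Gained islands divided by width in the later lists. Of the 177, 25.4% were listed at MM, 63.8% at LM and 42.4% in seedlings, against 92.2%, 91.4% and 89.0% of kept EM islands. Of the 65 under 1000 bp, 1 was listed at MM, 52 (80.0%) at LM and 22 (33.8%) in seedlings, where 66.4%, 93.6% and 90.0% of the 360 short kept islands were. Of the 112 of at least 1000 bp, 39.3% were listed at MM, 54.5% at LM and 47.3% in seedlings. In no later list were 35 gained islands (19.8%). As listed, the short gained islands were mostly at EM and LM and not at MM. With a fold of at least 3 in the later list, few gained islands were listed: 15 (8.47%) at MM, 7 (3.95%) at LM and 10 (5.65%) in seedlings. Their order at that fold rests on a few islands and was not set beside that of kept EM islands.

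H3K4me3 peaks, which the rule did not use, lay over 30.5% of all COT islands at COT and over 33.8% at EM. Kept islands carried them in 36.3% at COT and 40.1% at EM, and lost islands in 19.9% and 22.4%. Kept islands were wider, and in the classes between 1000 and 8000 bp the difference was smaller than over all widths. In islands over 1000 to 2000 bp it was 22.2% and 24.5% of kept against 17.5% and 19.1% of lost islands, and in those over 2000 to 4000 bp 26.1% and 28.1% against 19.98% and 23.4%. In those over 4000 to 8000 bp it was 35.1% and 39.0% against 29.4% and 33.8%. Over 8000 bp the difference was larger, 51.8% and 56.6% of kept islands against 6 of 42 lost ones at each stage (14.3%, 6.72 to 27.8). In islands up to 1000 bp the order was not the same at both stages, with 17.3% of kept and 19.1% of lost islands at COT and 25.2% and 19.6% at EM.

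Over all widths, H3K4me3 peaks listed at EM alone were not more frequent in lost than in kept islands. A peak at EM and none at COT lay in 278 lost islands (3.64%) and in 793 kept ones (5.75%). The reverse, a peak at COT alone, lay in 1.11% and 2.03%. Of the 1921 lost islands that passed the scaled density, 5.15% had a peak at EM alone. Of lost islands over 2000 to 4000 bp 4.31% did, and of kept ones of that width 3.63%, with intervals that overlap (3.66 to 5.06 and 3.05 to 4.32). In every other width class the share was lower in lost than in kept islands. It was 1.86% against 9.23% up to 1000 bp and 5.40% against 5.80% over 4000 to 8000 bp.

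As a share of bases the order turned. H3K4me3 peaks covered 4.70% of the bases of kept islands at COT and 5.59% at EM, and 5.88% and 7.29% of the bases of lost islands. Gained islands had the highest share, 18.2% at COT and 18.5% at EM, over 330000 bp in all. This lay in their wider members: 45 of the 112 gained islands of at least 1000 bp had a peak at each stage (40.2%), and 2 of the 65 under 1000 bp (3.08%). Of the 177 gained islands, 44 had a peak at both stages and 3 at each stage alone, so the H3K4me3 peaks at gained islands were nearly all there at COT.

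Lost islands were spread over all 20 chromosomes. The share lost ran from 33.6% on chromosome 12 to 38.5% on chromosome 15, and after scaling by density from 10.9% on chromosome 17 to 18.1% on chromosome 18. In the middle 50% of chromosomes 38.8% were lost (37.5 to 40.1) against 34.5% (33.8 to 35.3) in the outer parts, and after scaling 16.2% against 12.7%. Islands in the middle were narrower, and the difference was not the same in all width classes. Up to 1000 bp, 52.0% were lost in the middle (47.4 to 56.6) and 64.3% outside (61.2 to 67.4). Over 1000 to 2000 bp it was 79.0% and 76.0%, over 2000 to 4000 bp 48.6% and 49.4%, over 4000 to 8000 bp 12.6% and 13.6%, and over 8000 bp 0.741% and 1.09%. Of the gained islands 40.1% lay in the middle 50%, against 23.7% of kept EM islands. Among gained islands under 1000 bp it was 36 of 65 (55.4%, 43.3 to 66.8), against 44.2% (39.1 to 49.3) of short kept ones, with intervals that overlap. Among those of at least 1000 bp it was 31.25% (23.4 to 40.3) of gained and 23.2% (22.5 to 23.9) of kept islands.

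Runs of lost islands were mostly short. Lost islands that followed each other along a chromosome with no kept one between them formed 4512 runs, of which 2777 (61.5%) were 1 island long and 157 were of 5 or more, with 959 islands in them. The median lost island lay 13400 bp from the nearest kept island, and the median kept island lay 8200 bp from the nearest other kept one. Within 1000 bp of a kept island lay 6.92% of lost and 14.7% of kept islands, and within 10000 bp 42.7% and 54.9%. The caller bridges gaps up to 600 bp, so few distances under 1000 bp can occur between islands. Lost islands thus lay farther from kept islands, in the median, than kept islands did from each other. Whether they are fragments of kept domains was not tested.

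The longest run had 24 lost islands on chromosome 15 between 44352401 and 44725000, with a median relative ratio of 0.571 and 110 control reads per kb, against 75.1 in the whole list. It includes the island of chromosome 15 with dense control described above, and 7 of the 24 passed the scaled density. The second had 22 islands on chromosome 18 between 39695201 and 40089800, with a median relative ratio of 1.09, 51.5 control reads per kb and 5 that passed. Of these 22, none was listed at MM or LM and 1 in seedlings. The 2 longest runs thus differed in control density and ratio, and neither held an H3K4me3 peak at COT or EM.

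Of the 10 longest runs, 5 lay on chromosome 16 between 32588601 and 35113400, a stretch of 2.52 Mb that was singled out after the runs had been seen. It held 182 COT islands, of which 109 (59.9%) were lost, against 35.6% of all COT islands, and 82 EM islands. The median relative ratio of its COT islands was 1.03, close to that of the list. The median control density of the 5 runs lay between 42.1 and 61.7 reads per kb, against 75.1 in the list. Of its COT islands 94 passed the scaled density, and 30 of these were lost. In the whole list 14146 of 21435 passed, and 13.6% of these were lost. Its runs differed later: of the 16 lost islands between 33907001 and 34144200, 1 was listed at MM, 3 at LM and 1 in seedlings, and of the 10 between 35049401 and 35113400, 7, 9 and 9 were.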

How the data were processed

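ChIP-seq libraries of COT and EM embryos were analysed from the deposited H3K27me3 island lists, 1 per stage, made from both replicates against H3. Per the submitters' processing notes, Bowtie 0.12.7, SAMtools 0.1.19, MACS2 and SICER 1.1 were used, with no role stated. Per the file headers and names, islands have windows of 200 bp and gaps of 600 bp. For each island the authors deposited the ChIP and control read counts, the fold between them, a p-value and an FDR (false discovery rate). The deposited fold was a constant, 1.32 at COT and 3.05 at EM, times the ratio of the counts. H3K4me3 peaks were used for position only, and the score that the authors deposited with each peak was not. The mid-maturation list was matched by its stage code. The depth of single libraries is unknown here.

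Islands with an FDR of at most 0.05 were used, all COT and EM islands among them. Overlap, width, ratios and scaling were computed with Python 3.11.15, numpy 2.4.6, pandas 2.3.3 and scipy 1.17.1, and the overlap classes were tested on simulated data. No test between stages was possible. Named regions were the 6 lost islands with the most ChIP reads, the 6 gained islands of at least 1000 bp with the highest fold, the 4 largest and 4 smallest ratio changes in islands kept 1 to 1 of at least 2000 bp, the 3 islands with the most partners on each side and the 3 widest. Alternatives were the overlap, fold, FDR, equal numbers, scaling, width, pseudocount and control minimum. The comparison, groups and lists were chosen with earlier results of these data known.

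The genome build is not given in the sources used here. The lists reach base 62288002 of chromosome 18, and the last gene of the Glycine_max_v4.0 table ends at 58285519, so gene names and sequences were not used here. Positions are counted from 1.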

Additional observations from a re-analysis of the deposited data

How the results depend on the processing

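No paired analysis was possible because the replicates of a stage share 1 list, and for the same reason leaving out replicates was not run. Of 72 alternatives, 20 left their value within its counting interval or within 1.5 times its count. The cause of the other differences was not tested, except that a shorter COT list gives more gains by construction.

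The share of COT islands lost was 45.3% with a reciprocal overlap of 50%, 30.3% with a fold of at least 3 in both lists, 6.23% with that fold asked of COT alone, 15.5% and 12.5% with equal numbers by ratio and by p-value, and 13.6% and 33.2% with COT limited by scaled density and by scaled Poisson p-value. In the same order, the share of EM islands gained was 17.2%, 11.1%, 0.779% (fold asked of EM alone), 12.4%, 9.06%, 11.2% and 1.55%, and 1.68% in islands of at least 1000 bp. Lost exceeded gained under each of these.

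Joins numbered 423 with islands at most 1000 bp apart joined first and 384 with COT limited by scaled density. With a fold of at least 3 in both lists, 209 splits and 186 joins were left. The median width ratio was 0.968 with COT limited by scaled density and 0.987 with a fold of at least 3.

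The relative ratio of kept and lost islands was 1.09 and 0.531 against the ratio of summed reads, and 1.32 and 0.730 with a reciprocal overlap of 50%. In islands of 1000 to 2000 bp it was 0.994 and 0.698, so kept islands of that width lay at the list median and not above it.

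With a fold of at least 3 in the later list, 2.32% of lost islands were listed at MM, 2.24% at LM and 2.28% in seedlings, and 8.47%, 3.95% and 5.65% of gained islands. The lower share at MM than at the later 2 stages is then gone for lost islands. For gained ones it is gone as well, with only 15, 7 and 10 islands listed. Lost islands that passed the scaled density were listed in 37.1%, 43.9% and 55.8%, and gained islands of at least 1000 bp in 39.3% at MM and 54.5% at LM.

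H3K4me3 peaks with 50% of their length in the island lay in 33.9% of kept and 17.8% of lost islands at COT and in 37.6% and 19.9% at EM. With peaks of at least 200 bp it was 33.7% and 18.4% at COT and 39.1% of kept islands at EM. In islands of 1000 to 2000 bp it was 22.8% and 17.7% at COT and 24.9% and 19.2% at EM. The share lost in the middle 30% of chromosomes was 40.2%, and after scaling it was 16.2% in the middle 50% and 12.7% outside.

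The lists have no replicates, so no share can be set against biological spread. The EM ChIP is shallower, and islands under the EM threshold cannot be told from islands without the mark at this depth. Scaling used islands kept 1 to 1, which assumes that their mark was, on the whole, equal at both stages.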
